A study of Mus musculus with 6 samples.

Results

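The genes described here are 10 members of the programme of epithelial-mesenchymal transition (EMT): the transcription factor genes Snai1, Snai2, Zeb1, Zeb2 and Twist1, the cadherin genes Cdh1, Cdh2 and Cdh3, the filament gene Vim and the splicing factor gene Esrp1. They were chosen by symbol, and all 10 were found among the 55416 genes of the deposited table. RNA came from primary keratinocytes, the cells that build the epidermis, taken from pups 1 to 2 days old on a C57BL/6J:129 hybrid background. The cells were C/EBPβ knockout (the gene is Cebpb, 3 libraries, replicates 4, 5 and 6) or wild type (3 libraries, replicates 1, 2 and 3). Both were grown in serum-free medium with EGF, pituitary extract and 0.05 mM calcium, exposed to UVB (312 nm) at 10 mJ/cm2 and harvested after 8 h. All 6 libraries were irradiated, so the effect of UVB itself is not measured. Whether libraries of 1 genotype came from different animals or cultures is not stated.

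In EMT an epithelial sheet loses its adhesive contacts and its cells take on a migratory, mesenchymal form. The zinc finger proteins Snail (Snai1), Slug (Snai2), ZEB1 and ZEB2 and the helix-loop-helix protein Twist1 bind E-boxes in DNA and repress epithelial genes, above all Cdh1, which encodes E-cadherin of the adherens junction. A full transition replaces E-cadherin and P-cadherin (Cdh3, a cadherin of basal keratinocytes) by N-cadherin (Cdh2), raises vimentin (Vim) and fibronectin (Fn1), and lowers Esrp1, which keeps epithelial splice forms. Basal keratinocytes normally contain Slug, and partial forms of the programme are known from wound edges.

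Promoters of the members are shown because the deleted factor and the repressors among the members bind DNA. RefSeq promoter sequences (build GRCm38.p6) matched 4 of the 10 members, namely Snai1, Zeb2, Twist1 and Vim. The 250 bases before the start were searched on both strands for the E-box CAGGTG, a site type of Snail and ZEB proteins, for the C/EBP motif TTGCNNAA and for the TATA box TATAAA. In the lines below capitals mark each match, and no match overlaps another. The Snai1 promoter lies at chr2:167537945-167538194 on the forward strand, that of Zeb2 (the most upstream of 4 starts) at chr2:45117443-45117692 on the reverse strand, and that of Vim at chr2:13574061-13574310 on the forward strand.
Snai1: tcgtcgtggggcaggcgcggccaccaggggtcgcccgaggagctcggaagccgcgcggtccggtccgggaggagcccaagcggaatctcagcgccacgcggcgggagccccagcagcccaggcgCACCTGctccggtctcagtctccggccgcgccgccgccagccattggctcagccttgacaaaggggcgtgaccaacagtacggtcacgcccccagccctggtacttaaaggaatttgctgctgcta
Zeb2: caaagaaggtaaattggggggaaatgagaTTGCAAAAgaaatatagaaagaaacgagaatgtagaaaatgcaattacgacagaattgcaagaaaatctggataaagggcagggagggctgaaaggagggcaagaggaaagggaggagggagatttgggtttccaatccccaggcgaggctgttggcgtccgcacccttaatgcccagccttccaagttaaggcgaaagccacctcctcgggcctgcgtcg
Vim: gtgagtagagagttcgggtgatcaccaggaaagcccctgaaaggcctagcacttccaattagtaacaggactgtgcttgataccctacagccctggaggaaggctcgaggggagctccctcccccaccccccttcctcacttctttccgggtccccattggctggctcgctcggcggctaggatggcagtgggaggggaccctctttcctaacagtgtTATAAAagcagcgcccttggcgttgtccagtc
Snai1 held 1 E-box, which begins 126 bases before the start, where 17.2% of 32851 promoters of this length hold at least 1. The upstream Zeb2 promoter held 1 C/EBP match, 221 bases before the start, against 9.56% of all promoters, and the other 3 Zeb2 starts held none of the 3 motifs. Vim had 1 TATA box, 32 bases before its start, and Twist1 had 1 at 126 bases before its start, against 12.4% of all promoters. A match describes letters only, and no binding was measured.

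The knockout libraries held 81256192 to 92987497 counts and the wild type libraries 107757415 to 122797031, so that 3 counts stood for at most 0.0349 CPM (depth-normalised counts, with library sizes adjusted by edgeR's TMM factors). Cebpb had 78, 109 and 78 counts in the knockout libraries, against 18184, 17628 and 12036 in wild type. Y-linked transcripts of 4 genes summed to 0.101 to 0.158 CPM in knockout libraries and to 60.7 to 68.1 CPM in wild type libraries, so sex make-up ran with genotype through every comparison, and its part in them was not tested. Of the 17659 genes tested by edgeR (quasi-likelihood F test, Benjamini-Hochberg adjusted), 24.8% were called higher and 23.7% lower in knockout cells at an adjusted p under 0.05. With library totals in place of TMM, 6478 were called higher and 2452 lower, against 4387 and 4192, and the median log2 fold change of all genes moved to 0.21, from 0.01. That shift of 0.20 is the yardstick for every small difference below.

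Of the 10 members, 8 passed the filter on low counts, 3 of these were called lower and 0 higher. The called genes were Snai2, Zeb2 and Esrp1, which makes 37.5% of the members tested, where 48.6% of all tested genes were called. No member was called higher by DESeq2 or limma voom either, and at an unadjusted p under 0.05 edgeR gave 1, Snai1. Cdh1, Cdh2, Cdh3 and Vim were not called. Knockout and wild type libraries did not overlap in Snai1, Snai2, Zeb2 and Esrp1, and lack of overlap was found in 56.4% of all tested genes. The median log2 fold change of the tested members was -0.11, or 0.09 with library totals. RNA of a whole culture cannot tell fewer cells of a type from less RNA per cell.

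**Figure D1:**
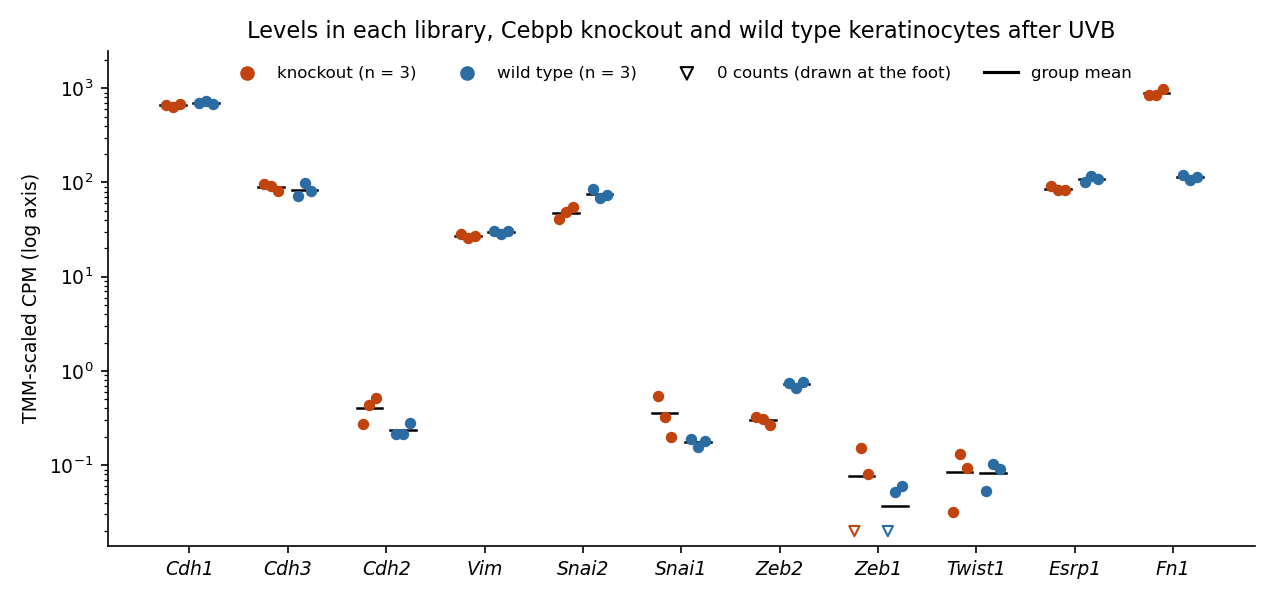
TMM-scaled CPM (log axis) of the 10 members and Fn1 in each of the 3 knockout and 3 wild type libraries, with group means as bars and libraries without counts as open triangles. Cdh1, Cdh3 and Vim of both genotypes lie side by side, Snai2, Zeb2 and Esrp1 lie lower in knockout libraries, and Fn1 alone stands far higher in them.

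E-cadherin, the adhesion receptor whose loss is a hallmark of full EMT, was the most abundant member and did not pass the test between genotypes. Cdh1 (ENSMUSG00000000303) stood at 672, 633 and 689 CPM in the knockout libraries, against 702, 727 and 677 CPM in the wild type libraries. The groups overlap, since knockout replicate 6 lies above wild type replicate 3. The log2 fold change of knockout over wild type was -0.08 (95% confidence interval -0.20 to 0.04, edgeR adjusted p = 0.26). With library totals it was 0.12 (edgeR adjusted p = 0.0761), so its sign rests on the scaling. Neither interval reaches a fall of 1 log2 unit.

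P-cadherin, the cadherin of the basal layer, did not pass the test either. Cdh3 (ENSMUSG00000061048) stood at 95.8, 91.0 and 81.2 CPM in knockout libraries, against 71.8, 99.2 and 80.6 CPM in wild type libraries, and the wild type values enclose all knockout values. Its log2 fold change was 0.09 (95% interval -0.13 to 0.31, edgeR adjusted p = 0.49). The wild type replicates decide its size. Without wild type replicate 2 it was called higher (0.23, edgeR adjusted p = 0.0304), without wild type replicate 1 it was -0.01, and with library totals it was called higher (0.29, edgeR adjusted p = 0.0367).

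N-cadherin, the cadherin that replaces E-cadherin in a full transition, was scarce but detected in every library. Cdh2 (ENSMUSG00000024304) had 26, 43 and 44 counts in knockout libraries, against 24, 25 and 28 counts in wild type libraries. In CPM these were 0.273, 0.434 and 0.512 in knockout and 0.215, 0.215 and 0.281 in wild type libraries, so the lowest knockout library lay below the highest wild type library. The log2 fold change of 0.78 had a 95% interval of -0.10 to 1.65 and was not called (edgeR adjusted p = 0.135). Per length, N-cadherin made up 0.0305% of the summed CPM per kb of the 3 cadherins in knockout and 0.0171% in wild type libraries. E-cadherin made up 87.7 ± 1.17% in knockout and 88.9 ± 1.41% in wild type libraries, and P-cadherin 12.3 ± 1.18% in knockout and 11.05 ± 1.41% in wild type libraries (SD, n = 3 each). The ranges of these shares overlapped between genotypes for each of the 3 cadherins.

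Vimentin, the filament protein of mesenchymal cells, was present at a moderate level in both genotypes. Vim (ENSMUSG00000026728) stood at 28.6, 25.7 and 26.9 CPM in knockout libraries, against 30.4, 28.5 and 30.3 CPM in wild type libraries. Only knockout replicate 4 reached into the wild type range. The log2 fold change was -0.14 (95% interval -0.30 to 0.03, edgeR adjusted p = 0.166), and 0.06 with library totals (edgeR adjusted p = 0.554). By the likeness rule (smallest distance in mean-centred log2 CPM over 6 libraries, among genes of similar level), the genes most like Vim were Mrpl11 (distance 0.0583), Thoc6 (0.0827) and Ccdc58 (0.0892). Those most like Cdh1 were Tkt (0.0885), Pfn1 (0.0915) and Iqgap1 (0.116). None of these 6 genes was called by edgeR, which is no separate result, since they were chosen for their likeness to uncalled genes.

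Among the repressors, Slug was the abundant member and was lower in knockout cells. Snai2 (ENSMUSG00000022676) had 40.7, 48.4 and 54.7 CPM in knockout libraries, against 85.3, 69.1 and 72.9 CPM in wild type libraries. Every knockout library lay below every wild type library. Snai2 fell by 0.66 ± 0.10 log2 units (SE, 95% interval -0.88 to -0.45, edgeR adjusted p = 6.08e-05), and by 0.46 with library totals (edgeR adjusted p = 7.35e-04). The call held in all 14 alternative settings, with log2 fold changes of -0.77 to -0.46.

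Snail was scarce, and its knockout libraries were far apart. Snai1 (ENSMUSG00000042821) had 52, 32 and 17 counts in knockout libraries, against 21, 18 and 18 counts in wild type libraries. In CPM these were 0.546, 0.323 and 0.198 in knockout and 0.188, 0.155 and 0.180 in wild type libraries, so that knockout replicate 6 lay just above the wild type range. The log2 fold change was 1.03 ± 0.47 (SE, edgeR adjusted p = 0.0858). It was 0.58 without knockout replicate 4 (edgeR adjusted p = 0.453). Snai1 was called higher without knockout replicate 6 (1.31, edgeR adjusted p = 0.0439) and with library totals (1.23, edgeR adjusted p = 0.041). Slug outnumbered Snail in every library. The log2 ratio of Snai2 to Snai1 counts was 6.22, 7.23 and 8.11 in knockout libraries, against 8.82, 8.80 and 8.66 in wild type libraries, a difference of -1.58 (exact two-sided permutation p = 0.1, the smallest that 3 against 3 allows). Without knockout replicate 4 this difference was -1.09.

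ZEB2, a repressor that melanocytes also contain, was low and lower still in knockout cells. Zeb2 (ENSMUSG00000026872) had 31, 31 and 23 counts in knockout libraries, against 84, 76 and 76 counts in wild type libraries. In CPM these were 0.326, 0.313 and 0.268 in knockout and 0.753, 0.654 and 0.762 in wild type libraries, with a clear gap between the groups. Zeb2 fell by 1.25 ± 0.31 log2 units (SE, 95% interval -1.91 to -0.59, edgeR adjusted p = 0.0032), and by 1.05 with library totals (edgeR adjusted p = 0.00996). An antisense gene, Zeb2os, overlaps 3.27% of its annotated exon length, and without a stated strand setting reads there cannot be assigned.

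ZEB1 and Twist1 were at the floor. Zeb1 (ENSMUSG00000024238) had 0, 15 and 7 counts in knockout libraries, against 0, 6 and 6 counts in wild type libraries. Twist1 (ENSMUSG00000035799) had 3, 13 and 8 counts in knockout libraries, against 6, 12 and 9 counts in wild type libraries. The groups overlap in both genes, and neither passed the filter on low counts. With no filter, edgeR gave adjusted p = 0.548 for Zeb1 and adjusted p = 0.975 for Twist1, and at these counts a difference was not detectable.

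Esrp1, an RNA-binding protein that maintains epithelial splicing, was somewhat lower in knockout cells. Esrp1 (ENSMUSG00000040728) had 90.9, 83.0 and 82.8 CPM in knockout libraries, against 102, 118 and 109 CPM in wild type libraries, and the groups did not overlap. It fell by 0.36 ± 0.07 log2 units (SE, edgeR adjusted p = 3.25e-04). With library totals Esrp1 was no longer called (-0.16, edgeR adjusted p = 0.0805). Its paralog Esrp2, which shares that role and was named after its values were seen, fell by 0.54, to 229 ± 8.64 CPM in knockout cells against 334 ± 8.34 CPM in wild type cells (SD, n = 3 each). Counts per gene do not show which splice forms were present.

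Per kb of annotated exon, the order of the members was nearly the same in both genotypes. In knockout libraries Cdh1 led with a mean of 145 CPM per kb, followed by Snai2 (23.7), Cdh3 (20.4), Esrp1 (13.6) and Vim (5.70). In wild type libraries Cdh1 averaged 154 CPM per kb, followed by Snai2 (37.5), Cdh3 (19.1), Esrp1 (17.4) and Vim (6.27). Snai2 lay below Cdh3 in knockout replicate 4 and above it in knockout replicates 5 and 6, so they cannot be ranked there. The ranges of Cdh3 and Esrp1 overlapped in wild type libraries, but Cdh3 lay above Esrp1 within each. In wild type replicate 1 the gap was small (16.4 against 16.2 CPM per kb). Snai1, Cdh2, Twist1, Zeb2 and Zeb1 averaged 0.219 CPM per kb or less in both genotypes.

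**Figure D2:**
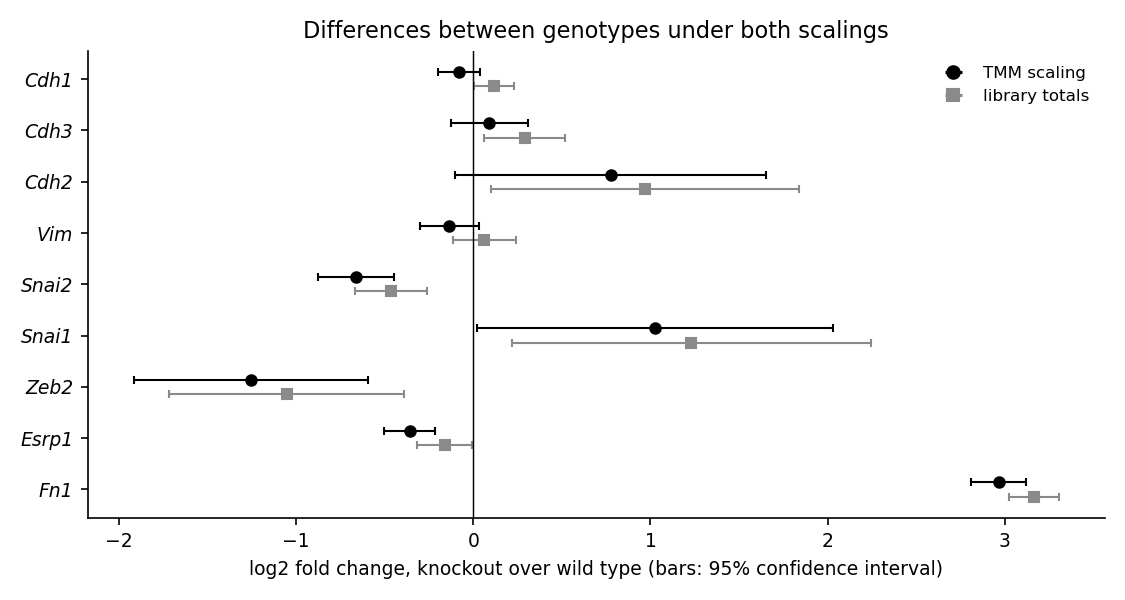
Log2 fold change of knockout over wild type with 95% confidence intervals for the 8 tested members and Fn1, under TMM scaling (circles) and library totals (squares). Snai2, Zeb2 and Esrp1 lie below 0 under both, though Esrp1 was not called with library totals. Cdh1 and Vim change sign between the scalings, and Fn1 stands near 3 under both.

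Fibronectin, a matrix protein that basal keratinocytes also secrete at wounds, was set against these members to ask whether its rise came with a mesenchymal shift. Fn1 (ENSMUSG00000026193) had 847, 847 and 975 CPM in knockout libraries, against 122, 107 and 114 CPM in wild type libraries, a rise of 2.97 ± 0.07 log2 units (SE, edgeR adjusted p = 5.14e-14). A ratio of 2 genes within a library does not depend on how libraries are scaled. The log2 ratio of Fn1 to Vim counts was 4.89, 5.04 and 5.18 in knockout libraries, against 2.00, 1.91 and 1.91 in wild type libraries. The log2 ratio of Vim to Cdh1 was -4.55, -4.62 and -4.68 in knockout libraries, against -4.53, -4.67 and -4.48 in wild type libraries. The mean Fn1/Vim ratio was thus 3.10 higher in knockout libraries on the log2 scale, with a wide gap between the genotypes. The Vim/Cdh1 ratio differed by -0.06, within the spread of the libraries.

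Exact two-sided permutation tests over libraries gave p = 0.1 for Fn1/Vim and for Fn1/Cdh1 (difference 3.04), p = 0.4 for Vim/Cdh1, p = 0.2 for Cdh2/Cdh1 (0.82) and p = 0.3 for Cdh3/Cdh1 (0.18). Adjusted over the 6 ratios tested, the lowest of these permutation p values became 0.2, and no ratio could have passed 0.05 with 3 against 3 libraries. The ratio of Zeb2 to Zeb1 was not tested, since a library of each genotype had no Zeb1 count. Ratios of the 3 called members to Cdh1 were added after their values were seen. Snai2/Cdh1 differed by -0.59, Esrp1/Cdh1 by -0.28 and Zeb2/Cdh1 by -1.18, each with no overlap between genotypes (exact permutation p = 0.1 each). Adjusted over the 6 added ratios, each of these permutation p values became 0.12. The 3 genes were taken because they had been called lower, and Cdh1 differed little, so these ratios are no separate support for the calls. Esrp1 lay lower relative to Cdh1 in every knockout library, a ratio that rests on the reference gene in place of the scaling.

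**Figure D3:**
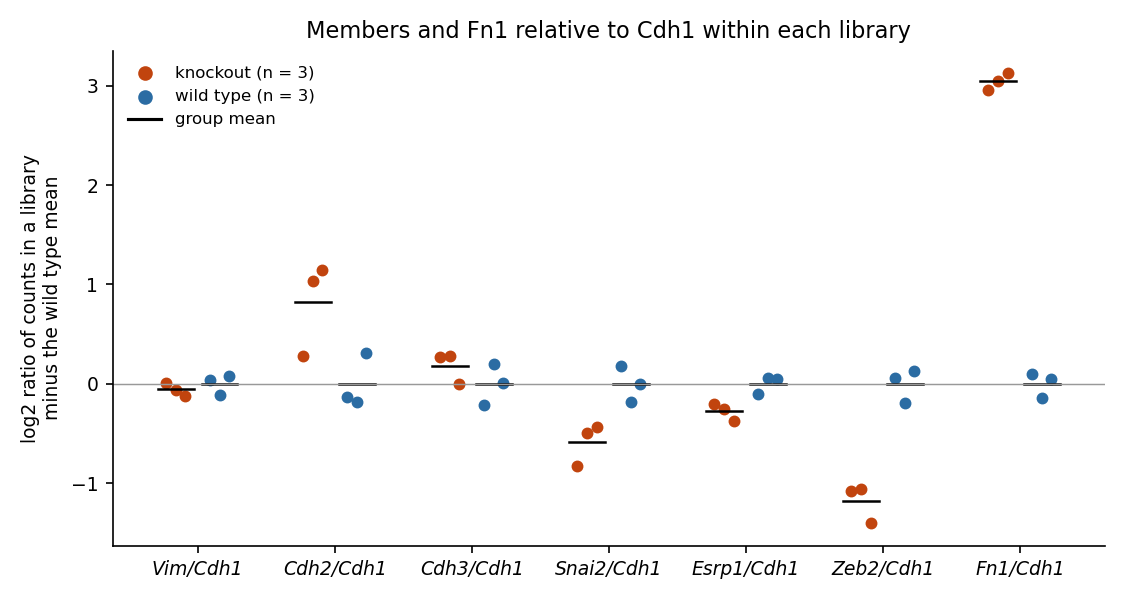
Log2 ratio of counts of each gene to Cdh1 within each library, minus the wild type mean, for 3 knockout and 3 wild type libraries, with group means as bars. Vim/Cdh1 stays near 0 in every library, Snai2/Cdh1, Esrp1/Cdh1 and Zeb2/Cdh1 lie below 0 in knockout libraries, and Fn1/Cdh1 lies near 3.

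Other transcription factors known from EMT changed in both directions. Of 17 listed, 14 were tested, 6 were called higher and 4 lower, with a median log2 fold change of -0.05. That makes 42.9% higher and 28.6% lower, against 24.8% and 23.7% of all tested genes. Sox4 rose by 1.13, to 415 ± 18.4 CPM in knockout cells against 189 ± 6.10 CPM in wild type cells (SD, n = 3 each). Foxc1 fell by 1.13, to 39.8 ± 2.70 CPM in knockout cells against 87.3 ± 12.1 CPM in wild type cells. Foxc2, a forkhead relative of Foxc1, rose by 1.34. Sox9, the most abundant of the rest, fell by 0.35, not called with library totals (-0.15, edgeR adjusted p = 0.0968).

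Regulators that hold the epithelial state, several of which repress the EMT factors, were mostly lower. Of 15 tested, 9 were called lower, 3 higher and 3 were not called, with a median of -0.48. That makes 60% lower and 20% higher, against 23.7% and 24.8% of all tested genes. Grhl1 fell by 2.72 ± 0.07 log2 units, Trp63 by 1.95 ± 0.10, and Ovol1, a zinc finger repressor of the differentiating layers, fell by 2.50 ± 0.10 (SE), to 43.2 ± 4.24 CPM in knockout cells against 244 ± 34.6 CPM in wild type cells (SD, n = 3 each). The 3 genes called higher, named after their values were seen, were Grhl2 (0.39), Ovol2 (0.46) and Rbm47 (0.62). Without wild type replicate 3 none of the 15 was called higher by edgeR, and without wild type replicate 2 or knockout replicate 4 1 was.

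Epithelial junction and polarity genes split evenly, with 13 of 32 called higher and 13 lower (median -0.09). Each direction held 40.6%, against 24.8% higher and 23.7% lower among all tested genes. Claudins of simple epithelia and Epcam led the rises. Cldn7 rose by 3.01 ± 0.08 log2 units, to 79.2 ± 3.74 CPM in knockout cells against 9.83 ± 0.847 CPM in wild type cells, Cldn3 by 2.01 and Epcam, an epithelial adhesion molecule, by 2.11, to 1718 ± 142 CPM in knockout cells against 398 ± 30.0 CPM in wild type cells (SD, n = 3 each). Dsp, the desmosome plaque gene, fell by 0.67. Among deeper falls, named after their values were seen, were those of Ppl (-1.40), Prss8 (-1.34), Dsc2 (-1.09) and the claudin gene Cldn1 (-1.03). Cldn1 stood at 437 ± 34.3 CPM in knockout against 892 ± 48.0 CPM in wild type cells (SD, n = 3 each). Of 14 adherens junction partners tested, 4 were called higher and 4 lower (median -0.11), which is 28.6% in each direction and near the shares of all tested genes. Jup, which encodes plakoglobin, fell by 0.65 and the scaffold gene Tjp1 by 0.55, while Nectin3 rose by 0.89. Ctnnb1, which encodes the beta-catenin that binds E-cadherin, had a log2 fold change of 0.01 (edgeR adjusted p = 0.844). With library totals Ctnnb1 was called higher (0.21, edgeR adjusted p = 0.00116).

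Of 16 other cadherins 5 were tested, and 1 was called higher and 1 lower (20% each, against 24.8% and 23.7% of all tested genes). Cdh24 rose by 0.74 and Cdh13, an atypical cadherin without a cytoplasmic domain, fell by 0.56, not called with library totals (-0.37, edgeR adjusted p = 0.0595). Cdh11, a cadherin of mesenchymal cells, stood at 0.290 ± 0.109 CPM in knockout and 0.228 ± 0.0508 CPM in wild type cells, and Cdh15 at 0.323 ± 0.0561 CPM in knockout and 0.270 ± 0.0269 CPM in wild type cells (SD, n = 3 each). Neither was called by edgeR.

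Other intermediate filament genes were mostly higher. Of 11 tested, 7 were called higher and 1 lower, with a median of 0.85. In shares these were 63.6% and 9.09%, against 24.8% and 23.7% of all tested genes. Krt8 and Krt18, a keratin pair of simple epithelia, rose most, with Krt8 up by 3.99 ± 0.07 log2 units, to 960 ± 59.4 CPM in knockout cells against 60.5 ± 1.74 CPM in wild type cells, and Krt18 up by 2.84 (SE, and SD with n = 3 each). A pseudogene, Krt8-ps, can share reads with Krt8, whose value is uncertain to that extent. Synm, a large filament protein that assembles with vimentin or desmin, rose by 2.54, to 38.8 ± 4.20 CPM in knockout cells against 6.66 ± 0.657 CPM in wild type cells. Lmna, the lamin A gene, fell by 0.29, not called with library totals (-0.10, edgeR adjusted p = 0.116).

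Of 33 mesenchymal matrix and cytoskeleton genes tested, 15 were called higher, 6 lower and 12 neither (median log2 fold change 0.13). That makes 45.5% higher, against 24.8% of all tested genes, and Fn1 is among them. The share called higher was 40.6% among the epithelial junction and polarity genes. The shares called lower were further apart, 18.2% of the mesenchymal list and 40.6% of the epithelial junction list, against 23.7% of all tested genes. Both lists were chosen with earlier results of these data known. Tnc, the matrix gene of wounds, rose by 1.76, to 163 ± 16.5 CPM in knockout cells against 48.1 ± 4.85 CPM in wild type cells (SD, n = 3 each). Mmp14, a membrane-bound matrix protease, rose by 1.28 and Tpm1, a tropomyosin gene, by 0.55. The genes that follow were named after their values were seen. The largest rises of the list were those of the microfibril gene Fbn1 (4.93 ± 0.28 log2 units, SE), at 6.53 ± 1.14 CPM in knockout against 0.212 ± 0.119 CPM in wild type cells, and of the matricellular gene Postn (4.11 ± 0.22), at 13.4 ± 2.33 CPM in knockout against 0.775 ± 0.302 CPM in wild type cells (SD, n = 3 each). Loxl2, which crosslinks collagen, rose by 1.33, Fstl1 by 1.31 and the collagen gene Col5a2 by 1.27. The deepest falls were those of the protease gene Mmp3, at 0.307 ± 0.215 CPM in knockout against 4.36 ± 0.641 CPM in wild type cells (SD, n = 3 each), and of Col5a1 (fell by 1.36). Acta2, the smooth muscle actin gene, came next with a fall of 0.99, to 18.8 CPM in knockout against 37.4 CPM in wild type cells. Tagln, also of this list, rose by 1.95. The collagen genes Col1a1 and Col1a2 stood at 1.35 and 0.521 CPM in knockout and at 0.959 and 0.760 CPM in wild type cells (means, n = 3 each), neither called by edgeR. S100a4, a fibroblast marker often used for EMT, averaged 0.0141 CPM in knockout and 0.0134 CPM in wild type cells.

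**Figure D4:**
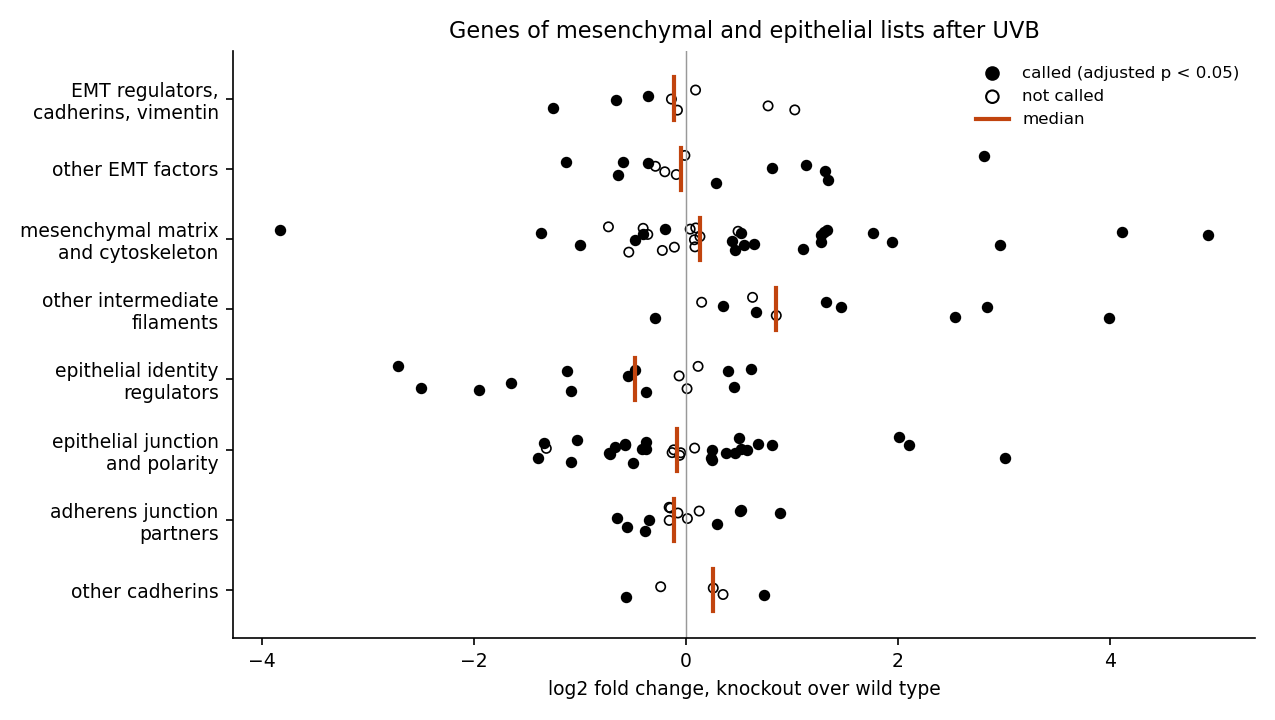
Log2 fold change of knockout over wild type for each tested gene of 8 lists, filled where called by edgeR at an adjusted p under 0.05, with the list median as a bar. The tested members spread around a median of -0.11, while the mesenchymal matrix list reaches from -3.83 to 4.93 and the epithelial junction list from -1.40 to 3.01.

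The keratinocyte label was met by its markers, with Krt5 at the head of 8 that summed to 23600.3 to 24598 CPM in knockout and 39535 to 44477 CPM in wild type libraries. Of these, 7 were called lower (87.5%, against 23.7% of all tested genes) and 1 higher in knockout cells. Melanocytes contain Vim, Zeb2 and Slug as well, and melanocyte markers were present. Their 8 genes, led by Pmel, summed to 609 to 691 CPM in knockout and to 701 to 786 CPM in wild type libraries, with 6 of 8 called lower and 0 higher by edgeR (0 also at an unadjusted p under 0.05). The share called lower was 75%, against 23.7% of all tested genes. Of these 6, Pmel (-0.17) lay within the yardstick for small differences, and Tyrp1 (-0.27) and Sox10 (-0.28) lay little beyond it. Mitf, Kit and Tyr lay well beyond it. Calls of the marker lists were not recounted with library totals, so how far these shares rest on the scaling was not tested. Log2 fold changes of the 8 ranged from -1.05 (Mitf) to -0.13 (Dct), with Kit at -0.78, Tyr at -0.73 and Pmel at -0.17. Relative to Pmel within a library, Zeb2 differed by -1.09 and Snai2 by -0.49 (exact permutation p = 0.1 each), and Vim by 0.04 (exact permutation p = 0.8). The size of such a difference rests on the marker taken, and ratios to other markers were not computed. The ratios to Pmel were added after the values were seen. How far melanocytes contribute to Vim, Zeb2 or Snai2 was not tested.

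The 12 fibroblast markers summed to 6.26 to 7.02 CPM in knockout and to 7.79 to 11.2 CPM in wild type libraries. Pdgfra was the most abundant and Lum was at 0 in every library. Of 8 tested, 1 was called higher (12.5%) and 2 lower (25%), against 24.8% and 23.7% of all tested genes. Endothelial markers summed to 10.3 to 11.7 CPM in knockout and 11.2 to 11.3 CPM in wild type libraries, led by Kdr, with Cdh5 and Emcn at 0 throughout. Immune markers summed to 3.10 to 3.54 CPM in knockout and 3.14 to 4.41 CPM in wild type libraries, led by Csf1r, with Cd3e at 0 throughout. The 8 markers of smooth muscle and pericytes summed to 254 to 264 CPM in knockout and 108 to 129 CPM in wild type libraries. Most of that sum was Mcam, also a melanoma and endothelial adhesion gene, at 217 CPM in knockout and 70.5 CPM in wild type cells. Acta2, the smooth muscle actin gene, fell by 0.99 and Tagln rose by 1.95 (both named after their values were seen), so the markers of that list moved apart.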

How the data were processed

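Per the labels' protocols, total RNA of 6 libraries was sequenced in pairs of 150 bp reads. The authors deposited an unnormalised count table, and the submitters' processing notes name FastQC, STAR, HTSeq and DESeq2 with the builds mm39 and GRCm39. Of versions, annotation release and strand setting, the sources used here say nothing. Symbols were matched by Ensembl identifier. The members and gene lists were chosen with earlier results of these data known.

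Counts were tested with edgeR 4.0.16 (quasi-likelihood, robust, R 4.3.3), genotype as the only factor, filterByExpr at 10 counts, TMM scaling and Benjamini-Hochberg adjustment over 17659 genes. The script was tested on simulated data with 200 changed genes. p-values measure the spread between these libraries, which may be technical. SEs are the log2 fold change over the square root of F, and intervals are 95%. CPM of 3 counts or fewer carry no fold, and such floors cover counting error only. CPM per kb used the exon union of GENCODE M21, on the older build GRCm38.

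Named genes were all members, Fn1 and Cebpb, and of each list the 3 smallest p and the most abundant of the rest. A gene that this rule takes is not reported here. Marker lists gave their most abundant gene and genes at 0. For Vim and Cdh1 the 3 genes of nearest pattern were taken. Alternatives were DESeq2 size factors, library totals, no filter, a mean of at least 1 CPM, DESeq2 1.42.0, limma voom 3.58.1, no X and Y genes, thinning to the smallest total and leaving out each library.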

Additional observations from a re-analysis of the deposited data

How the results depend on the processing

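Snai2 and Zeb2 were called lower under every alternative that tested them, and Esrp1 under all but library totals. The members called lower numbered 3 without any library. The members called higher were 0, but 2 with library totals (Snai1 and Cdh3) and 0 to 1 without a library. With library totals 2452 of all genes were called lower. The same setting gave 2 other EMT factors, 0 other cadherins, 0 other intermediate filaments and 3 mesenchymal genes called lower, and 5 epithelial regulators called higher. No filter gave 2 other cadherins called higher. Without a library, epithelial regulators called higher ranged from 0 to 2, and other intermediate filaments called lower from 1 to 2.

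Signs turned with library totals for Vim (0.063), Cdh1 (0.12), Mrpl11 (0.080), Thoc6 (0.094), Ccdc58 (0.013), Tkt (0.12), Pfn1 (0.12) and Iqgap1 (0.13). List medians turned with library totals to 0.091 for the members, 0.15 for other EMT factors, 0.088 for adherens junction partners and 0.11 for epithelial junction genes. Without a library the EMT factor median ranged from -0.14 to 0.075 (0.075 without wild type replicate 1, 0.014 without knockout replicate 5), Cdh3 from -0.011 to 0.23 and Ctnnb1 from -0.0051 to 0.020, both lowest without wild type replicate 1. The Vim/Pmel difference ranged from -0.016 to 0.13, lowest without knockout replicate 6. The cause was not tested, other than that library totals move the median of all genes by 0.20. Members below 1 CPM (Snai1, Zeb2, Cdh2) drop out at a mean of at least 1 CPM, and the Zeb2/Zeb1 ratio could not be had in libraries without Zeb1 counts. No paired analysis was possible because the genotypes share no replicate number in the labels. Depth limits Zeb1, Twist1, Cdh2 and Snai1, which had 0 to 52 counts a library.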
